A study of Ziziphus jujuba with 15 samples.

Results

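Of the 29293 annotated genes in the leaf transcriptome of the jujube (Ziziphus jujuba) cultivar ‘HS’, 38 were raised at 1 d of heat stress and lay near their starting level at 3 and 5 d. They were chosen on measured values: the mean of log2(FPKM + 1) over the 3 libraries of a day exceeded that at 0 d by 1 or more at 1 d, differed from it by at most 0.5 at 3 and at 5 d, and the mean FPKM at 0 d was below 700. FPKM counts sequenced fragments scaled for transcript length and for how many fragments the library had mapped. The 38 genes differed widely in level and in the agreement of their replicates, and 12 of them had a mean FPKM at 0 d below 1.

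The libraries came from seedling leaves of ‘HS’ (HS-Haoqing1), a heat-sensitive cultivar raised from rooted stem cuttings, after 0, 1, 3, 5 and 7 d of heat stress, with 3 replicates (a, b and c) a day. All plants were of the 1 cultivar, and the 0 d leaves were the untreated control. No growth-room control of the later days was analysed here, so the days of heat and the age of the seedlings cannot be told apart. The paper's methods name 3 biological replicates for each treatment and cultivar, while the labels speak of replicate RNA that was pooled before the libraries were made. Which holds for these libraries is not settled. The p-values below measure the spread between these libraries, which may be technical. Between 17371 and 18313 genes had an FPKM of 1 or more per library. Within a day replicates b and c correlated at 0.966 to 0.969 over genes and replicate a with either of them at 0.906 to 0.946. What sets replicate a apart is not given in the sources used here, and values that rest on it are named below. In the sample titles the library numbers of replicate a all run lower than those of b and c, which are numbered in adjacent pairs. What the numbers stand for is not said.

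Heat unfolds proteins and loosens membranes, and plant cells answer within hours by making chaperones under heat stress transcription factors. Part of this early wave fades while the stress lasts, as the cells acclimate, and part is kept up for as long as the heat continues. Leaf chloroplasts are among the first sites of damage, since photosystem II and the thylakoid membrane are heat labile.

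Such a course was uncommon among the genes raised at 1 d. With the same limit on the level at 0 d, 1213 annotated genes had a difference of 1 or more at 1 d, and 768 of these were still raised by 1 or more at both 3 and 5 d. Within 0.5 of the 0 d mean were 105 of the 1213 at 3 d and 122 at 5 d, and the 38 genes (3.13%) met both. The differences at 1 d were all small, from 1.00 to 1.57 on the log2(FPKM + 1) scale with a median of 1.12. On this scale the change of a gene of low FPKM is understated.

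**Figure D1:**
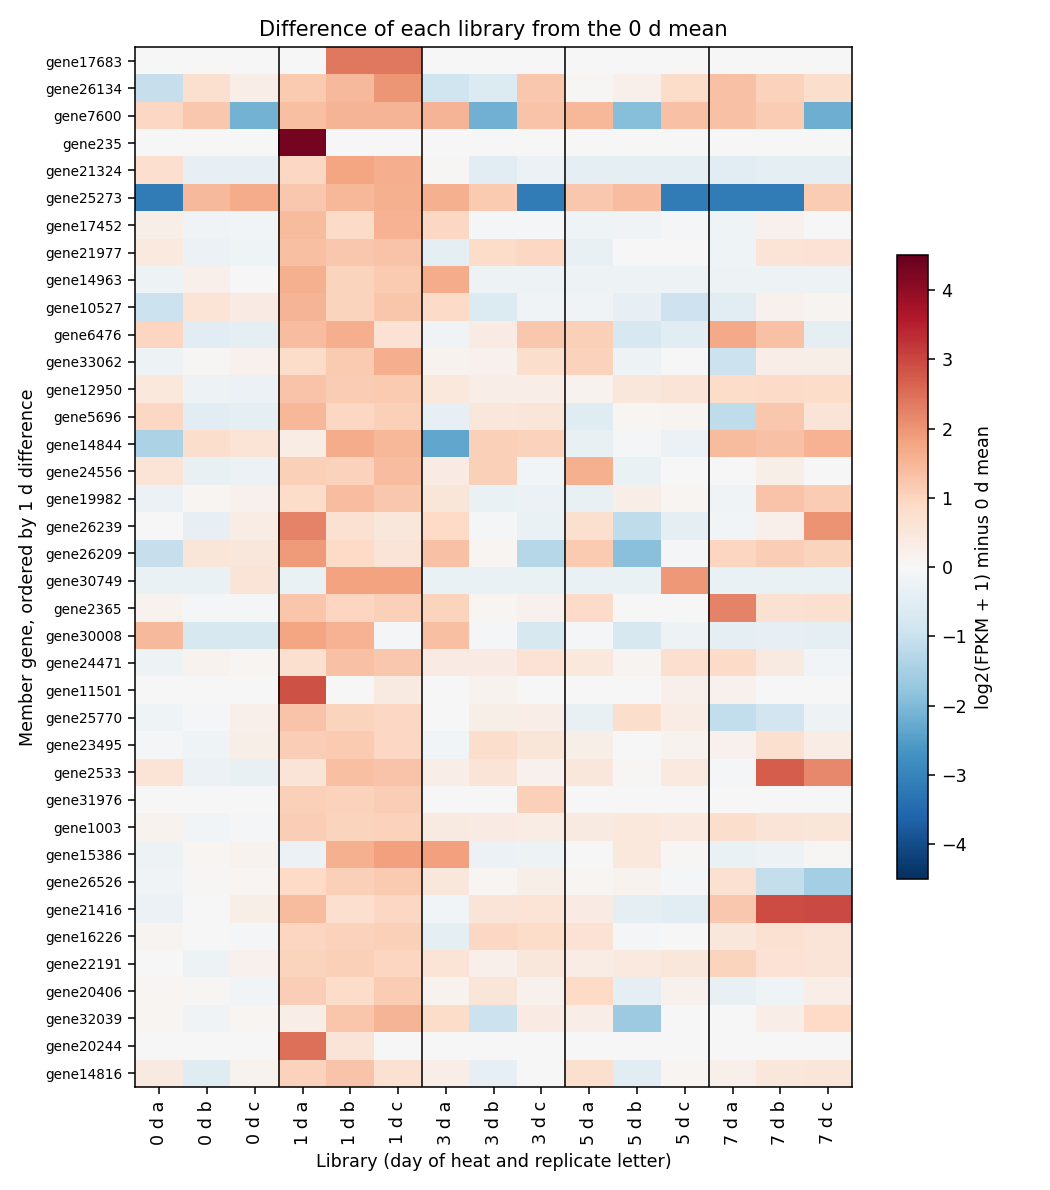
Heat map of the 38 genes (rows, ordered by their difference at 1 d) in the 15 libraries (columns, by day of heat and replicate letter). Colour is log2(FPKM + 1) minus the gene's mean at 0 d, red for higher and blue for lower. The 1 d columns are red by the choice of the genes. Single dark cells, as in gene235 at 1 d in replicate a and gene25273 in 5 libraries, mark replicates of 1 day that lie far apart.

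A protein description was found for 5 of the 38 genes and a term of the Gene Ontology (GO) or a pathway of KEGG for 5, in all for 9. The study's tables, from which these come, describe only genes that it called in ‘HS’ or in its heat-resistant cultivar, and they pair 1238 IDs with a RefSeq name. The other 29 genes can be given by ID only. All 5 RefSeq names of the members were found in the RefSeq gene table of assembly ASM3175591v1.

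gene12950 (LOC107420810) encodes a probable plastid-lipid-associated protein 8 with a fibrillin domain. Some fibrillins coat the lipid droplets of plastids, the plastoglobules, and some are known from other plants for protecting photosystem II under stress. Neither is stated for gene12950 in its description. The gene is listed under cysteine biosynthetic process, cellular cation homeostasis and divalent metal ion transport. Its FPKM at 1 d was 409, 371 and 381, against 231, 144 and 141 at 0 d. At 3 d it was 236, 206 and 209, and at 5 d 187, 242 and 249.7. The libraries of 7 d had 299, 303 and 299. All 3 libraries of 1 d thus stood above every other library, and those of 7 d stood above the libraries of 0, 3 and 5 d. The mean was 387 ± 19.5 at 1 d and 172 ± 51.0 at 0 d (SD, n = 3 each), a difference of 1.20 on the log2 scale.

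The most abundant member was gene16226, listed under nucleosome assembly, the wrapping of DNA around histones. Its FPKM was 960.1, 988 and 1030.2 at 1 d, against 522, 485 and 451 at 0 d. At 3 d the replicates disagreed, with 362 in replicate a and 934 and 867 in replicates b and c. At 5 d the order was turned round, with 753 in replicate a and 467 and 487 in b and c. The 3 d mean of 721 ± 313 (SD, n = 3) therefore met the limit through replicate a, and without that library gene16226 was no longer a member.

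gene2365 is listed under RNA transport, the export of RNA from the nucleus. Its FPKM was 289, 234 and 254 at 1 d, against 136, 112 and 114 at 0 d, without overlap. At 3 and 5 d replicate a, at 243 and 219, stayed near its 1 d value, while b and c lay between 119 and 136. gene22191, under base excision repair, a pathway that removes damaged bases from DNA, had 75.1, 79.4 and 73.6 at 1 d, against 37.1, 31.5 and 42.7 at 0 d. Its level was 43.2 to 57.2 at 3 d and 46.4 to 53.4 at 5 d, still above the 0 d mean by 0.46 and 0.43 on the log2 scale.

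The other described genes had lower levels. gene21416 (LOC107430000) encodes a probable WRKY transcription factor 41, of the plant family of DNA-binding proteins best known from responses to pathogens and stress. Its FPKM was 23.4, 14.6 and 16.3 at 1 d, against 6.57, 8.08 and 9.98 at 0 d. gene19982 (LOC107428471) encodes a cytochrome P450 named after avocado CYP71A1, a haem monooxygenase of a family that makes many specialised metabolites. It had 1.97, 3.39 and 2.93 FPKM at 1 d, against 0.390, 0.774 and 0.917 at 0 d, and all 3 libraries of 1 d stood above the 9 of 0, 3 and 5 d. gene26134 (LOC107435156) encodes an ankyrin repeat-containing protein, with repeats that bind other proteins. It had 3.83, 4.79 and 7.34 FPKM at 1 d, against 0.0338, 2.51 and 1.64 at 0 d, and one library of 3 d, at 3.90, reached the range of 1 d.

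gene17452 is listed under lignin biosynthetic process, the making of the phenolic polymer of woody walls. Its FPKM was 2.25, 1.17 and 2.59 at 1 d, against 0.455, 0.0744 and 0.118 at 0 d, and replicate a at 3 d, with 1.32, lay inside the range of 1 d. gene23495 (LOC107432241), an uncharacterized protein, had 7.61, 8.17 and 6.61 FPKM at 1 d, against 2.88, 2.49 and 3.77 at 0 d. Its libraries of 3 d ran up to 5.90 and stayed below those of 1 d.

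**Figure D2:**
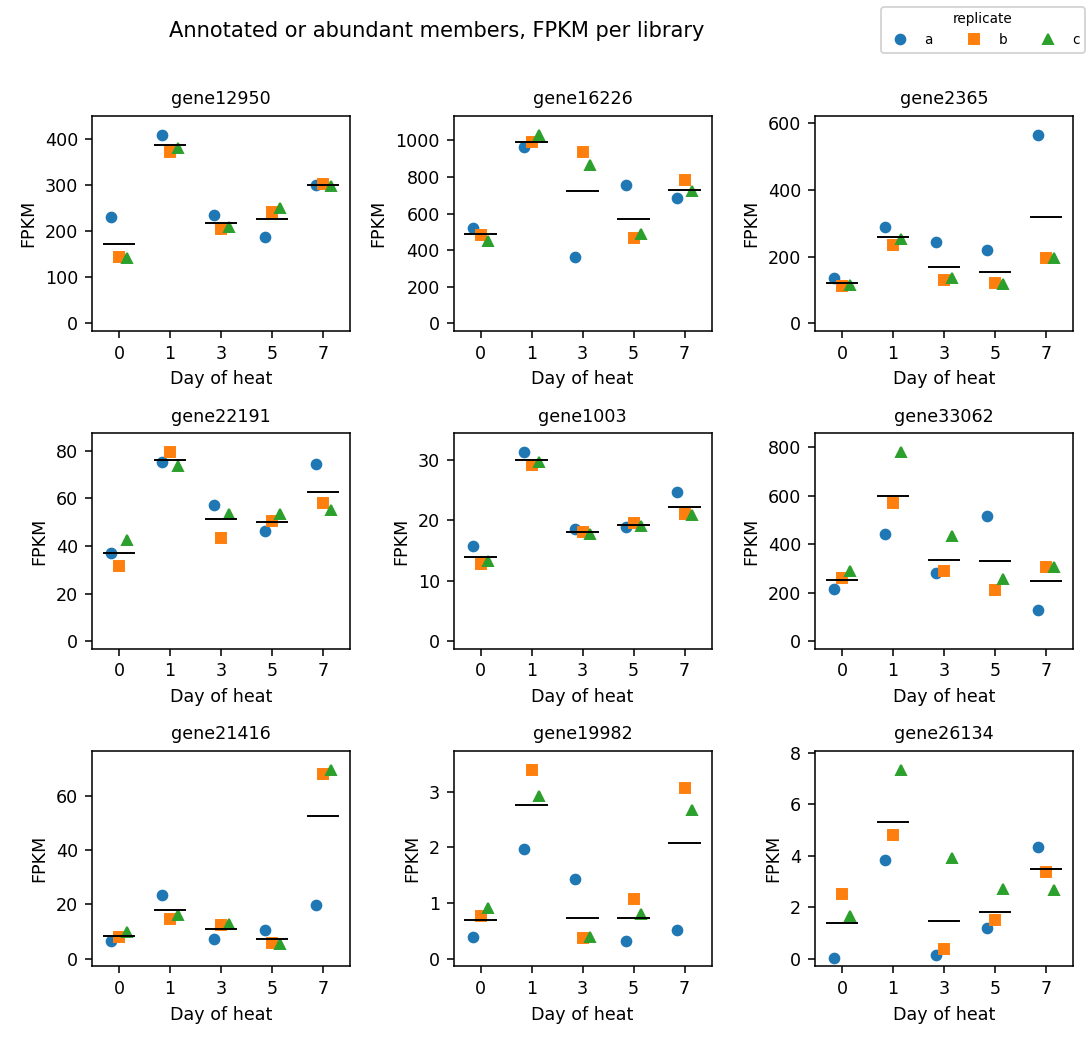
FPKM (y axis, linear, a scale for each gene) by day of heat (x axis) for 9 genes with a description or a high level. Points are single libraries (circle, square and triangle for replicates a, b and c) and bars the mean of the 3. gene1003 and gene12950 show 3 close replicates at 1 d above all other days, and gene21416 has its highest values at 7 d.

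Among the genes without a description, gene1003 had the closest replicates. Its FPKM was 31.3, 29.2 and 29.6 at 1 d, against 15.8, 12.7 and 13.3 at 0 d, and it lay between 17.7 and 19.6 in the 6 libraries of 3 and 5 d. These 6 stood above every library of 0 d, by mean differences of 0.36 at 3 d and 0.44 at 5 d on the log2 scale. gene33062 had 443, 569 and 779 at 1 d, against 214, 259 and 289 at 0 d, and 1 library of 5 d, at 516, entered the range of 1 d. gene21977 had 62.8, 57.1 and 60.2 at 1 d, against 33.3, 20.1 and 20.9 at 0 d. In this gene replicates b and c stayed at 44.1 and 46.6 at 3 d while replicate a was at 18. gene24471, with 63.7, 98.1 and 90 at 1 d against 32.5, 42.3 and 40.8 at 0 d, overlapped with 5 d, where it reached 64.6.

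gene6476 had no such separation. Its FPKM was 177, 213 and 106 at 1 d, against 132, 46.8 and 49.3 at 0 d, and over all days the gene took levels between 40.3 and 219.7 with replicates of 1 day on either side.

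Several of the low genes were higher in every library of 1 d than in any of 0 d. gene21324 had 1.71, 3.87 and 3.38 FPKM at 1 d, against 1.42, 0.0996 and 0.0941 at 0 d, and none of its 9 libraries of 3, 5 and 7 d passed 0.490. gene10527 had 4.64, 2.93 and 3.66 at 1 d, against 0, 2.05 and 1.52 at 0 d. gene14963 had 2.61, 1.38 and 1.65 at 1 d, against 0, 0.386 and 0.197 at 0 d, was listed at 0 in all 6 libraries of 5 and 7 d, and reached 2.75 in replicate a at 3 d. gene31976, chosen after its values were seen, was listed at 1.11, 1.05 and 1.14 at 1 d, at 1.11 in replicate c at 3 d and at 0 in the other 11 libraries.

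Over the 34 genes that passed the filter on low values (3 or more of the 15 libraries with an FPKM of 1 or above), all 3 libraries of 1 d lay above all 3 of 0 d in 26. That holds for 27.1% of the 19925 genes tested. In 12 of the 34 the libraries of 1 d lay above all 9 of 0, 3 and 5 d (1.47% of all genes tested). These separations come from the libraries that chose the genes, and nothing is read from them. The 12 are gene21324, gene21977, gene10527, gene12950, gene19982, gene25770, gene23495, gene1003, gene26526, gene21416, gene16226 and gene22191, and they hold 6 of the 9 genes with a description or term.

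In other members the replicates of a day lay far apart. In 14 of the 38 genes the highest replicate of some day had 3 FPKM or more and at least 10 times the lowest, a limit set after the values were seen. Of the 34 past the filter 10 did so, and of all 18141 annotated genes past it 7.19%. The libraries behind this count are in part those of the rule, so it is a description.

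gene25273 was at 19.9, 23.8 and 26.2 FPKM at 1 d and at 0, 23.7 and 27.6 at 0 d. It was listed at 0 in 5 libraries (replicate a at 0 d, c at 3 and 5 d, a and b at 7 d) and lay between 18.9 and 27.6 in the other 10. Its 1 d difference of 1.44 thus reflects 1 library at 0 d, and it met the limits at 3 and 5 d because 1 library was at 0 there as well. gene7600 behaved alike, with 15.4, 17.4 and 17.7 at 1 d, against 11.1, 13.8 and 0.484 at 0 d. It was below 1 in replicate c at 0 d, b at 3 d, b at 5 d and c at 7 d, and between 11.1 and 17.7 in the other 11 libraries.

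4 genes did not pass the filter and were not tested. gene235 was at 18.8 FPKM in replicate a of 1 d, which held 99.8% of its summed FPKM of that day, and at most 0.0275 in every other library. gene11501 was at 6.28 in the same library (95.3%) and at most 0.310 elsewhere. gene20244 was at 4.51 there (90.3%), at 0.484 in replicate b of 1 d, and at most 0.00192 elsewhere. gene17683 was listed at 4.13 and 4.12 in replicates b and c of 1 d and at 0 in the other 13 libraries. In none of these 4 did all 3 replicates of 1 d share the high value.

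**Figure D3:**
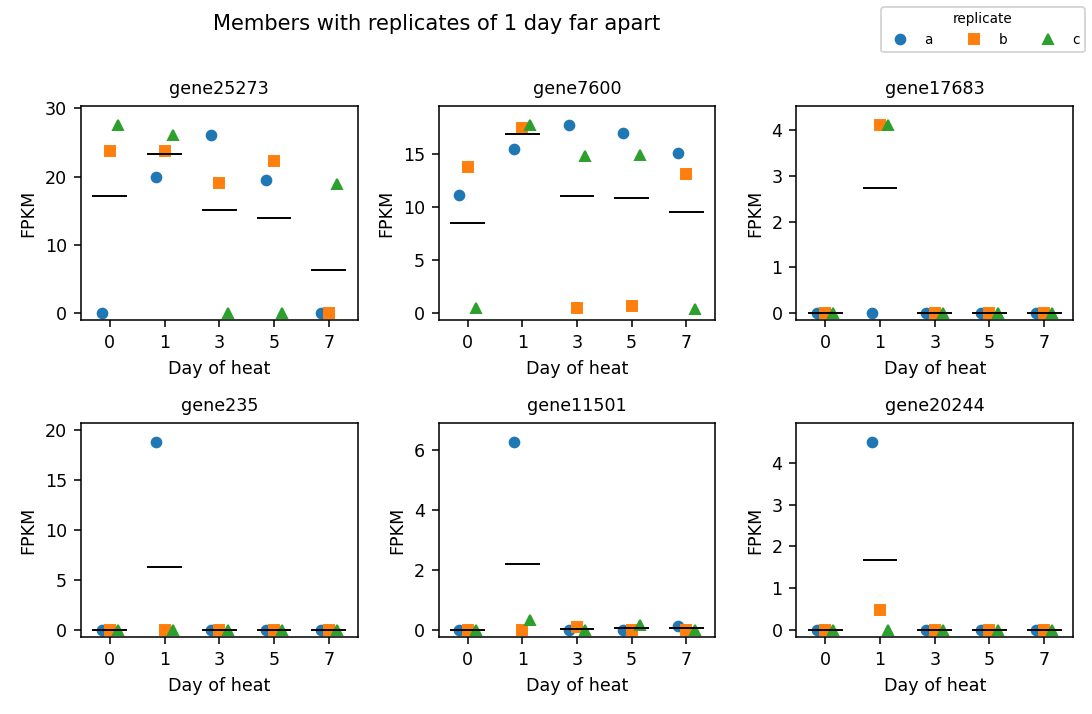
FPKM (y axis, linear) by day of heat (x axis) for 6 genes whose replicates of 1 day lay far apart. Points are single libraries by replicate letter and bars the mean of 3. gene25273 and gene7600 are high in all 3 libraries of 1 d and take either a high level or one near 0 within each of the other days, and gene235, gene11501 and gene20244 are high in replicate a of 1 d.

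Membership shifted with single libraries. When each of the 12 libraries of 0, 1, 3 and 5 d was left out in turn, only gene17683, gene17452 and gene19982 met the limits every time. The number of members ran from 29 to 76, and 16 to 35 of the 38 stayed. Leaving out a 0 d library removed 30 of the 38 at least once, a 1 d library 19, a 3 d library 20 and a 5 d library 15. Without replicate a at 1 d, 76 genes met the limits, 28 of them among the 38. The described gene12950 stayed in 10 of the 12 settings, gene21416, gene2365, gene16226 and gene23495 in 9, gene22191 in 8 and gene26134 in 7. gene25273, at 3 of 12, was kept least often.

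**Figure D4:**
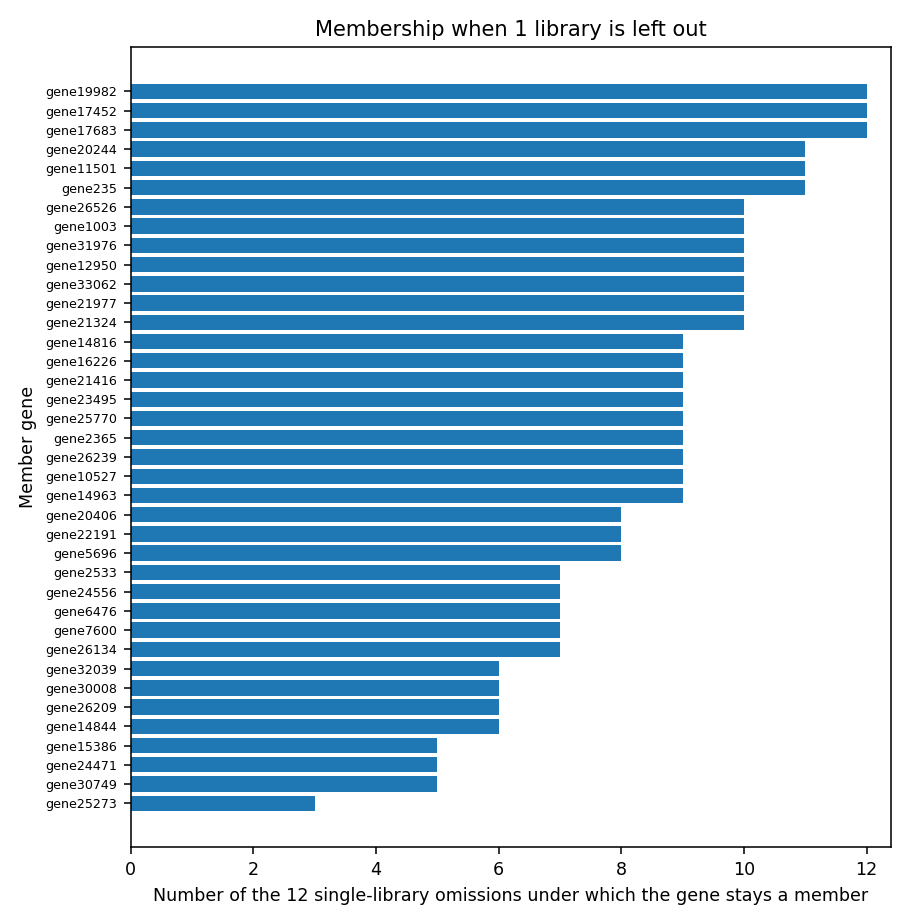
Number of the 12 settings with 1 library of 0, 1, 3 or 5 d left out (x axis) in which each of the 38 genes (y axis) still met the limits. 3 genes reach 12 and gene25273 reaches 3.

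The values next to the limits showed how narrow they were. At the limit of 1 at 1 d, gene14816 (1.000), gene20244 (1.011) and gene32039 (1.017) were just inside, and gene5356 (0.999), gene1087 (0.993) and gene32378 (0.993) just outside, in log2 units. At the upper limit of 0.5 at 3 d, gene6476 (0.476), gene24471 (0.464) and gene15386 (0.459) were inside, and gene23654 (0.511), gene3143 (0.518) and gene13762 (0.522) outside. At the upper limit at 5 d, gene30749 (0.459), gene24556 (0.438) and gene1003 (0.436) were inside, and gene24447 (0.506), gene9103 (0.512) and gene3364 (0.530) outside. At the lower limit of -0.5 at 3 d, gene30749 (-0.284), gene21324 (-0.228) and gene25273 (-0.127) came nearest from inside, and gene7438 (-0.574), gene4752 (-0.581) and gene11426 (-0.605) from outside. At the lower limit at 5 d these were gene10527 (-0.479), gene32039 (-0.433) and gene21324 (-0.422), and gene6218 (-0.516), gene17090 (-0.783) and gene14862 (-0.810).

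The libraries of 7 d are known from the labels alone, since the methods of the study describe no 7 d treatment. They were not used to choose the genes, and they bear on whether the genes were still near their starting level after 2 further days of heat. The 0 d libraries served both the choice and this comparison, so the comparison with 0 d is not independent of it. The choice favoured genes whose 0 d libraries happened to be low, which by itself raises the differences of 7 d from 0 d. With limma, a call needed an adjusted p (Benjamini-Hochberg) no higher than 0.01 and a difference of at least 1 on the log2(FPKM + 1) scale. This is the 2-fold change meant here, and for a gene of low FPKM it takes more than 2-fold in FPKM. By these limits 1 of the 34 genes was higher at 7 d than at 0 d, against 4.14% of all genes tested. None was lower by these limits, against 4.88% of all genes, while an unadjusted limma p under 0.05 was found for 1 of the 34 among the lower (20.6% of all genes) and for 6 among the higher (22.7% of all genes). Some of the 34 passed the filter through libraries of other days, as gene31976, which was listed at 0 in all 6 libraries of 7 and 0 d. In a fit of those 6 libraries alone, 26 members passed it and none was called. The share of members called is therefore not read against that of all genes. Without overlap of the libraries, 9 of the 34 lay above 0 d (24.8% of all genes) and 2 below (22.2%). Over the 34 the median difference was 0.37 on the log2 scale. Over all genes tested it was 0.04, a value that the 0.37 is not read against for the same reasons. Over all 38 members it was 0.15. Over the members tested it ran from 0.16 to 0.61 when replicates were left out (0.16 without replicate b, 0.22 without c and 0.61 without a at every day, and 0.18 without replicate c of 7 d alone).

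The gene called was gene21416, the WRKY transcription factor. Its FPKM was 19.9, 68.1 and 69.6 at 7 d, against 6.57, 8.08 and 9.98 at 0 d, so that all 3 libraries of 7 d were higher. The difference was 2.36 ± 0.42 on the log2 scale (SE; limma adjusted p = 0.00113). It was larger than the 1.04 of 1 d, where the 3 libraries were at 14.6 to 23.4, and replicate a of 7 d lay inside that range. The call was lost in a fit of the 6 libraries of 7 d and 0 d alone (limma adjusted p = 0.0181), and without replicate b (0.0642) or replicate c (0.0501) at every day. Over all alternatives tried the adjusted p ran from 2.51e-06 to 0.0642 and the difference from 2.06 to 2.94.

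3 further genes passed the adjusted p but not the fold change. With gene21416, 4 of the 34 were thus higher at an adjusted p of 0.01 whatever the fold, against 9.43% of all genes tested. gene12950, the fibrillin, was higher by 0.84 ± 0.17 at 7 d than at 0 d on the log2 scale (SE; limma adjusted p = 0.00265), with the libraries given above. gene22191, of base excision repair, had 74.6, 58.0 and 55.2 FPKM at 7 d, against 37.1, 31.5 and 42.7 at 0 d (0.74 ± 0.14, SE; limma adjusted p = 0.00194). gene1003 had 24.7, 21.1 and 20.8 at 7 d, against 15.8, 12.7 and 13.3 at 0 d (0.64 ± 0.10, SE; limma adjusted p = 0.000479). In all 3 genes the libraries of 7 d lay above those of 0 d and below those of 1 d, except that replicate a of gene22191 reached the range of 1 d. None of the 3 passed 0.01 in the fit of 6 libraries, where the limma adjusted p was 0.0288 for gene12950, 0.0232 for gene22191 and 0.0186 for gene1003. Without replicate b at every day it was 0.115, 0.0579 and 0.0548 in the same order of genes, and without replicate c 0.104, 0.0325 and 0.0476. Without replicate a it was 0.0121 for gene22191, while gene12950 and gene1003 passed.

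gene2365, of RNA transport, did not pass, at 1.21 ± 0.38 (SE; limma adjusted p = 0.0278). Replicate a of 7 d was at 564 FPKM and replicates b and c at 196 and 197, against 136, 112 and 114 at 0 d, so the size of the difference rests in part on replicate a. The WRKY gene showed the opposite, with replicate a the lowest of 7 d. Without replicate a at every day, the difference of gene2365 was 0.79 (limma adjusted p = 2.1e-05), under the 2-fold limit. Without replicate a of 7 d alone it was 0.70 (limma adjusted p = 0.0875). Fits with a replicate block called the gene, as given further below. gene26134, the ankyrin repeat gene, had 4.36, 3.37 and 2.67 FPKM at 7 d, against 0.0338, 2.51 and 1.64 at 0 d (1.06 ± 0.53, SE; limma adjusted p = 0.149).

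Other differences at 7 d also split replicate a from b and c, in genes named here after their values were seen. gene2533 had 0.402, 8.87 and 5.68 FPKM at 7 d, against 1.30, 0.246 and 0.187 at 0 d. gene19982, the cytochrome P450, had 0.516, 3.06 and 2.67 at 7 d, against 0.390, 0.774 and 0.917 at 0 d. gene5696 had 0.0580, 4.46 and 2.53 at 7 d, against 3.49, 0.673 and 0.724 at 0 d. gene26526 went the other way, with 12.3, 2.98 and 1.89 at 7 d, against 6.5, 7.66 and 7.91 at 0 d. None of these 4 was called in the fit of all 15 libraries. Without replicate a of 7 d, 3 of the 34 genes were called higher (gene21416, gene2533 and gene19982), against 4.88% of all genes tested, and gene26526 lower, against 4.04%. Without replicate a at every day, 5 of 29 were called higher (gene21416, gene2533, gene19982, gene12950 and gene5696), against 6.42% of all genes, and gene26526 lower, against 5.82%.

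gene14844 and gene26209, also chosen after their values were seen, had close replicates at 7 d. gene14844 was at 12.5, 11.7 and 13.9 FPKM, against 0.906, 7.83 and 6.77 at 0 d (difference 1.43, limma adjusted p = 0.189). gene26209 was at 7.74, 8.48 and 7.88, against 1.16, 5.5 and 5.27 at 0 d (1.02, limma adjusted p = 0.325). gene25770 was below 0 d in all 3 libraries, at 0.439, 0.692 and 1.62 against 1.70, 2 and 2.65 (-0.74, limma adjusted p = 0.0616). Both gene14844 and gene26209 had replicate a as the low library of 0 d.

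Of all 38 genes, 22 lay within 0.5 of their 0 d mean at 7 d as well, 13 above and 3 below. The 4 untested genes were among the 22, at levels of 0.135 FPKM or less at 7 d. Of the 34 tested, 18 lay within 0.5. The share of all genes within 0.5 was not counted, so no lasting return is read from these counts. The 4 members with a higher difference at 7 d than at 1 d were gene21416, gene2533, gene14844 and gene2365.

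**Figure D5:**
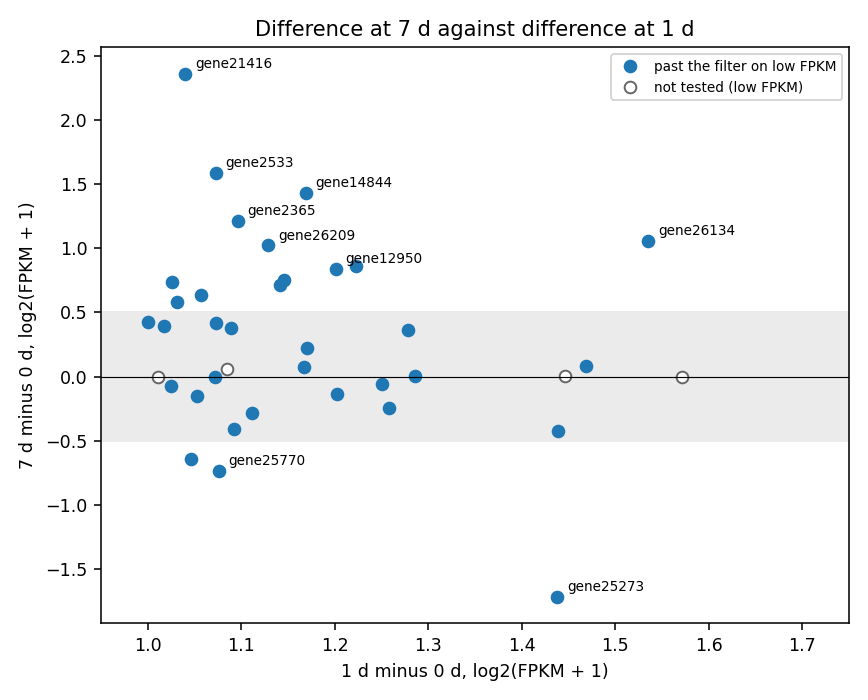
Difference at 7 d from 0 d (y axis) against the difference at 1 d from 0 d (x axis), both as means of log2(FPKM + 1), for the 38 genes. Filled points passed the filter on low FPKM, open points did not, and the grey band marks a difference of at most 0.5 at 7 d. Both axes share the 0 d libraries, so no relation is read from the plot. gene21416 is highest at 2.36 and gene25273 lowest at -1.72.

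The 20 lists of function that were looked at hold 853 genes of the table. They cover the response to heat, protein folding, protein processing in the endoplasmic reticulum, hormone signals, photosynthesis, the ribosome, the spliceosome and others. 1 list held a member, gene2365 in RNA transport, and over all 29293 annotated genes 38 are members. With so few members, nothing is read from the lists without one. Among the 40 genes of the list for response to heat, 15 had a difference of 1 or more at 1 d. Among the 49 of protein folding 24 did, and neither list held a member. Of all 29293 annotated genes, 1213 did with a mean FPKM at 0 d below 700, a limit not set on the lists. All 40 and 48 of the 49 list genes passed the filter on low values, against 18141 of the 29293. The list counts are therefore not read against that of all genes. The lists hold genes that the study called in ‘HS’ or in its heat-resistant cultivar and 7 of the 20 were shortened, so these counts are annotation and no independent evidence.

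Markers of leaf cell types moved between the days as well. They were taken from the same tables of genes that the study called, so the choice favoured genes that move. The sums are given as a description. Summed over the 16 light-harvesting genes that mark mesophyll, FPKM ran from 17468 to 28951 at 0 d, 36678 to 39220 at 1 d, 16248 to 26821 at 3 d, 16588 to 19693 at 5 d and 33635 to 39180 at 7 d. This sum was thus high at 1 d and again at 7 d. The sum of 17 cutin and wax genes of the epidermis was 97.9 to 141 at 0 d, 36.8 to 40.7 at 1 d, 25.9 to 29.3 at 3 d, 29.2 to 30.7 at 5 d and 25.8 to 72.1 at 7 d. That of 10 DNA replication genes was 55.8 to 70.1 at 0 d, 79.8 to 91.4 at 1 d, and 79.7 to 107 later. That of 17 xylem and secondary wall genes was 96.7 to 147 over all days. No list had a gene at 0 in every library and none held a member. In these leaves fewer cells of a type and less RNA per cell cannot be told apart, and the part of cell make-up in the results was not tested.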

How the data were processed

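The authors filtered the reads (Trimmomatic 0.36 and FastQC, per the submitters' processing notes), used TopHat 2 on Bowtie 2 for mapping and Cufflinks for assembly, and deposited an FPKM table of 32876 genes in 15 libraries. The genome build and the other versions are not given in the sources used here. The table holds no counts, so precision was taken from the spread of the 3 replicates, and no count test was used. The paper reports clean reads and mapped shares for its libraries, and these depths were not used here. Its libraries do not include the last day of heat, for which it gives no depth. Extraction kit and instrument differ between labels and methods.

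Differences from 0 d were tested on log2(FPKM + 1) with limma 3.58.1 in R 4.3.3 (lmFit, eBayes with an intensity trend), over all 15 libraries with day as the only term (10 residual degrees of freedom). The filter kept 19925 genes. On simulated data of these 19925 genes with 200 changed by 2 at 7 d (mean log2 value over 3), limma called 89.5% of the 200, and 1 unchanged gene. That change is larger than the members' median 7 d difference of 0.37, and 12 of the 38 had a mean 0 d FPKM below 1. The 89.5% therefore does not say how many member changes the test would find. Plots and tables used Python 3.11.15, numpy 2.4.6, pandas 2.3.3 and matplotlib 3.10.9.

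The genes and lists were chosen with earlier results of these data known. Named genes were those with the 12 largest 1 d differences, the 5 highest 1 d levels, a description, a place in a function list or a call at 7 d, those next to a limit, and the 3 whose 1 d level rests most on 1 library. gene22191 and the genes so marked in the text were chosen after their values were seen. Alternatives were other limits and the log2 of the mean FPKM in the choice of genes, a pseudocount of 0.1, no filter, median-of-ratios scaling, quantile normalization, a fit of 6 libraries, no trend, replicate blocks, calls with no minimum fold change or at an adjusted p of 0.05, and omitted libraries. No sequences are shown, since none of the study's build were used here.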

Additional observations from a re-analysis of the deposited data

How the results depend on the processing

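The count of members was 38, and it depended on the settings of the choice. It was 118 with a pseudocount of 0.1 (23 of the 38 among them), 9 with a band of 0.25 and 2 with a rise of 1.5. It ran from 62 to 67 without 1 replicate letter, with 15 to 21 of the 38 kept, and from 29 to 76 without 1 library. Under median-of-ratios scaling 54 and under quantile normalization 53 genes met the limits, each with 35 of the 38. With the log2 of the mean FPKM in place of the mean of log2 values 49 did, with 25 of the 38. The cause of these shifts was not tested. The mean over libraries of the members' median log2(FPKM + 1) was 1.44 at 0 d and 2.65 at 1 d, and 1.72 and 2.89 over the 34 past the filter.

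At 7 d against 0 d, 1 member was called higher. This became 0 in a fit of 6 libraries, 2 with the replicate block, 2 with replicate a set against b and c as a replicate block (gene2365 joining each time, limma adjusted p = 0.0029 and 0.00149), 3 at an adjusted p of 0.05 and 4 with no minimum fold change. Leaving out replicates gave 0 to 5 higher and 0 to 1 lower. No label says what libraries of the same letter share. Their deviations from the day means correlated at -0.101 to 0.121 over all pairs of days, with 1 of 30 pairs over 0.1. Between 0 d and 7 d the correlation was 0.121 for a, 0.0859 for b and 0.0877 for c. Whether the letters pair the libraries is not settled by these values. Over all 19925 genes tested, 824 were called higher and 972 lower. In the fit of 6 libraries, which tested 18397 genes and 26 members, these were 526 and 588. With the replicate block they were 818 and 946, and with replicate a set against b and c 878 and 1004. At an adjusted p of 0.05 they were 1121 and 1234, and with no minimum fold change 1879 and 1917. Without replicates they ran from 14 to 1241 and from 10 to 1125. Without replicate b at every day 28 were higher and 24 lower, and without replicate c 14 and 10. No count of calls at 7 d moved by over 1.5 times under the other settings: the pseudocount (at 1202 higher), the filter, both scalings and the trend. The causes were not tested.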

Other observations

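4 annotated genes met the same limits at 1, 3 and 5 d but had a mean FPKM at 0 d of 700 or more, and both of those with a description belong to photosynthesis. gene11529 (LOC107419233) encodes chlorophyll a-b binding protein P4, an antenna protein of the chloroplast. Its FPKM was 2882, 3079 and 2995 at 1 d, against 1695, 1194 and 1248 at 0 d, and 2254, 2287 and 2150.3 at 7 d. gene1331 (LOC107421293) encodes oxygen-evolving enhancer protein 3-2, a subunit on the water-splitting side of photosystem II. It was at 3793, 3337 and 3092 at 1 d, against 1016, 1861 and 953 at 0 d, and at 3794, 4107 and 3626 at 7 d. For gene9119, with no description, the values were 2592, 2630.4 and 2661 at 1 d, against 1231, 1234 and 1264 at 0 d, and for gene33245 they were 4744, 4691 and 4490.1, against 2557, 2189 and 2198.

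12 of the 3583 newly discovered genes met the limits too. Ziziphus_jujuba_newGene_299 was at 4.64, 10.2 and 11.7 FPKM at 1 d, against 1.79, 2.05 and 4.05 at 0 d. Ziziphus_jujuba_newGene_52 was at 48.3 in replicate c of 1 d and at 41.3 in replicate b of 7 d, and at most 0.81 in the other 13 libraries. These genes were chosen by the same measured values and were given no test.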
